A study of Mus musculus with 16 samples.

Results

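The comparison described here is the response of the liver to a high-fat diet (HFD) in control female mice. Bulk RNA sequencing gave 1 library per liver sample. Samples are called livers below, though no source states that they are separate animals. The comparison uses 8 of the 16 liver libraries of the series, chosen by their genotype and treatment labels: 4 controls on HFD and 4 controls on chow. Controls were Esr1fl/fl females, which carry a floxed estrogen receptor alpha gene and no Cre recombinase, on a mixed CD-1 and 129P2 background. They were 27 weeks old at collection, and the HFD group had been fed a high-fat diet for 17 weeks. The other 8 libraries came from Esr1Nkx2-1Cre mutants on the same diets, 4 of each, in which Cre driven by Nkx2-1 deletes the receptor in hypothalamic neurons. Mutants entered the fit as the other 2 group means, so their spread also enters the standard errors and p-values given for controls. Their levels serve only as a comparison. No label or method stated the time of day or the feeding state at which the livers were taken.

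A liver adjusts its own cholesterol synthesis to the cholesterol and fat it receives. The transcription factor SREBP-2, encoded by Srebf2, is held in the endoplasmic reticulum by the INSIG proteins when membrane sterols are plentiful, and is released to activate the genes of the sterol pathway when they are scarce. SREBP-1c, encoded by Srebf1, governs fatty acid synthesis under insulin, PPAR alpha governs fatty acid oxidation, and the xenobiotic receptors govern many cytochrome P450 genes, a number of which also differ between male and female livers.

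The sterol genes gave the most uniform differences between the diets, so their promoters are shown first. Of the 25 genes of the cholesterol list, 17 had a promoter window in RefSeq (GRCm38.p6), running from 250 bases before to 50 after a transcription start. A sterol regulatory element, spelled TCACNCCAC and sought on both strands, was present in 1 of these 17 genes, Hmgcs1, against 1.44% of all 27025 genes with a window. The CCAAT box, spelled CCAAT and also sought on both strands, was present in 16 of the 17, or 94.1%, against 41.1% of all genes. These are exact letter matches, not measured binding sites, and an element spelled otherwise would be missed. The 250 bases before the start site follow for 3 sterol genes whose values the results turn on, 5′ to 3′ on the gene's strand, with motif matches in capitals. They come from chr13:119690101-119690350 (plus strand) for Hmgcs1, chr15:82147019-82147268 (plus strand) for Srebf2 and chr5:4104698-4104947 (minus strand) for Cyp51.
Hmgcs1: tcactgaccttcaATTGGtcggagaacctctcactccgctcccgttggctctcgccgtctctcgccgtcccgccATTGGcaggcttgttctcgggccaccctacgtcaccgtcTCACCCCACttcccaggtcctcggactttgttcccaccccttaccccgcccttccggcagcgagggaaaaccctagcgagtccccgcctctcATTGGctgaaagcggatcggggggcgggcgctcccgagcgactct
Srebf2: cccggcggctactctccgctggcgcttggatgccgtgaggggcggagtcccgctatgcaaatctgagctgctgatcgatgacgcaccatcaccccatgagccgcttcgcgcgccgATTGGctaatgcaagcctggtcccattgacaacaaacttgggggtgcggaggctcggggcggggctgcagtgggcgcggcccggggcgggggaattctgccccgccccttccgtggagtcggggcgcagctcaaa
Cyp51: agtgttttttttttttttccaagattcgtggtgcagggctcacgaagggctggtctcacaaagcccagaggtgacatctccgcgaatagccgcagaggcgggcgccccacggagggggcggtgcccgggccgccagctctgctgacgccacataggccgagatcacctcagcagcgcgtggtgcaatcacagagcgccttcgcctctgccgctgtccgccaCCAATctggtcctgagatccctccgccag
The Hmgcs1 stretch held 3 CCAAT boxes, all on the opposite strand, beginning 237, 176 and 45 bases before the start site, and its sterol element began 137 bases before it. Srebf2 and Cyp51 held 1 CCAAT box each, and no letter match to the sterol element.

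Values are TPM-based levels (length-adjusted shares of a library) that the authors had scaled between libraries, so levels of different genes can be set side by side. Sequencing depth is not kept on this scale and is unknown. Column totals ran from 908129 to 950865 in the chow livers and from 947756 to 1119700 in the HFD livers, which did not pass an exact two-sided permutation test (p = 0.0571, where 4 against 4 cannot go below 0.0286). Summed hepatocyte markers (Alb, Ttr, Apoa1, Apob, Serpina1a and Cps1) reached 56938 to 84339 in the 8 livers, whereas neutrophil markers summed to 22.3 at most and the 1 adipocyte marker in the table, Plin1, reached 0.149 at most. The libraries fall into title-number series, each within 1 diet: HFD replicates 1 to 3 share a series with mutant HFD replicate 1, HFD replicate 4 shares another with mutant HFD replicates 2 to 4, and the chow controls are split 2 and 2 over a further pair. Diet and title series therefore cannot be told apart. HFD replicate 4 stood apart from its group: its median Spearman correlation was 0.944 with the other HFD controls and 0.961 with the chow controls, while the other 3 HFD controls had 0.972 to 0.973 with their own group. With mutant HFD replicates 2 to 4, of its own title series, it had 0.967. Mutant HFD replicate 1 likewise had 0.977 with the control HFD livers and 0.948 with its own group. Control HFD replicate 4 was kept, and results are given with and without it.

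No gene passed the threshold of 0.05 on adjusted p among the 12704 tested (0%), by limma with Benjamini-Hochberg adjustment over all genes. At an unadjusted limma p under 0.05, 813 genes were higher on HFD (6.4%) and 828 were lower (6.52%). In 429 genes all 4 HFD livers lay above all 4 chow livers (3.38%), and in 379 all 4 lay below (2.98%). A log2 difference of at least 1 was fitted for 61 genes on the higher side and 109 on the lower. The median over all tested genes was -0.01. Without HFD replicate 4 in the fit, 517 genes passed the adjusted threshold as higher (4.07%) and 408 as lower (3.21%). With limma library weights, which gave that library a weight of 0.228 and its 3 fellows 0.908 to 2.09, 1174 genes passed as higher (9.24%) and 1090 as lower (8.58%). Of the 925 genes called without the library, 924 were among those called with weights, and 40.8% of the weighted calls were among the 925. Both fits reduce the part of the same library, so this overlap is no independent check. Throughout, log2 differences are HFD minus chow on log2(value + 1), ± their standard error, and per-liver values are listed in the order of replicates 1 to 4. Each standard error comes from the fit of all 16 libraries, mutants included.

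Genes of cholesterol synthesis and uptake were lower on HFD as a group. All 25 tested members had a negative difference, 22 at an unadjusted p under 0.05 (6.52% of all genes) and 17 with no overlap between the diets (2.98% of all genes), and none passed the adjusted threshold with all libraries. Their median log2 difference was -1.10, beside -0.01 over all genes, and -1.12 without HFD replicate 4, where 6 members passed as lower (3.21% of all genes). The mean level of the list was 6.17, 7.03, 5.59 and 6.05 on log2(value + 1) in the chow livers and 4.59, 5.13, 4.74 and 5.23 in the HFD livers, so that every HFD liver, replicate 4 included, lay below every chow liver. The plot of sterol genes by liver shows how far this order held gene by gene.

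**Figure D1:**
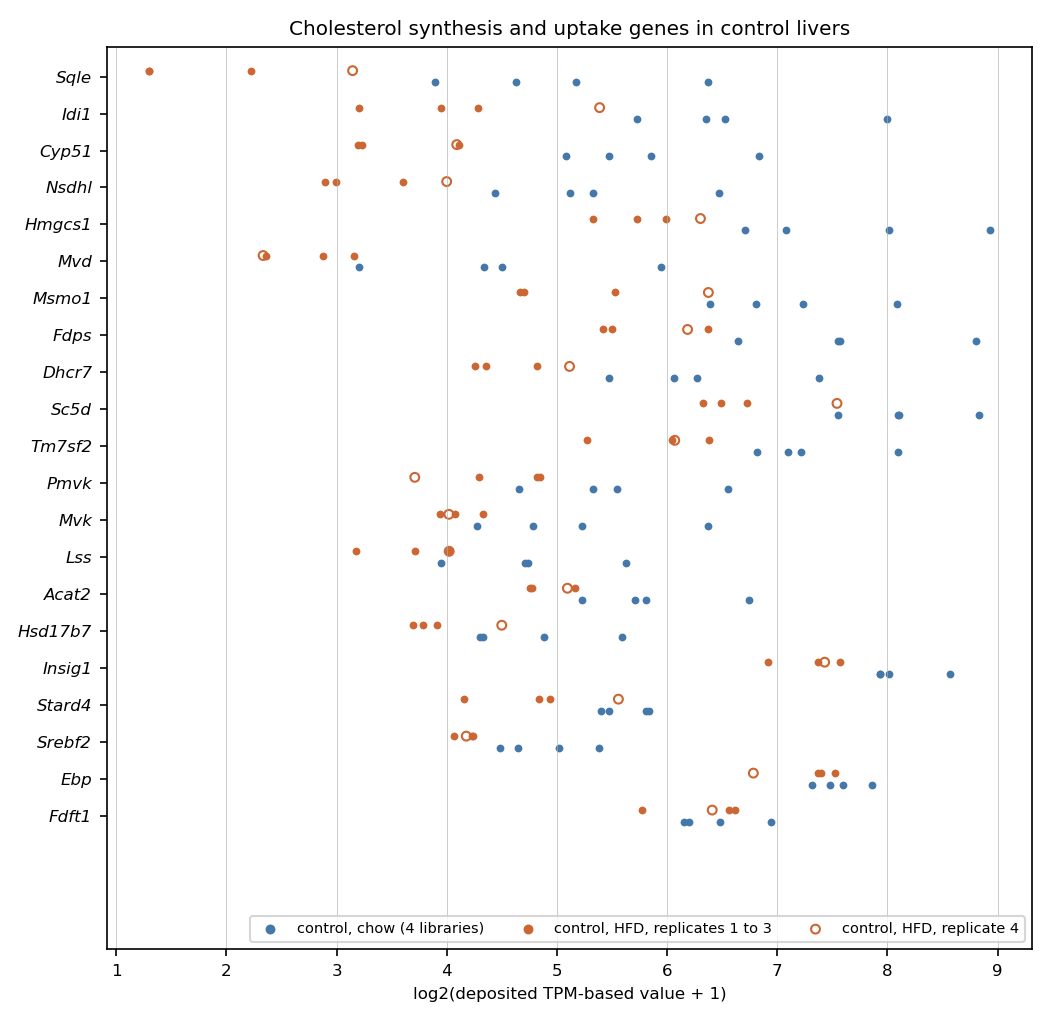
Level of 21 of the 25 cholesterol synthesis and uptake genes in the 8 control livers, on log2(deposited TPM-based value + 1), ordered by fitted difference with the most negative at the top. Points are single livers. The HFD livers lie to the left of all chow livers in 14 of the 21 genes, and HFD replicate 4 (open circles) is the highest HFD liver in 9 of them.

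Both regulators on the list were lower on HFD without overlap. Srebf2 (chromosome 15, 82147181 to 82205379, plus strand, GRCm38 as for all positions given) stood at 31.4, 40.7, 24.0 and 21.3 on chow and at 17.8, 17.9, 15.8 and 17.1 on HFD. The log2 difference was -0.70 ± 0.19 (limma adjusted p = 0.199). Insig1, which holds SREBP in the endoplasmic reticulum and is itself a sterol-responsive gene, had 243, 380, 258 and 243 on chow against 165, 188, 120 and 171 on HFD (-0.79 ± 0.32). Spread among the HFD livers was small for Srebf2, with an SD of 0.975 (n = 4) around a mean of 17.1, against 8.69 around 29.4 on chow.

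Among the 20 synthesis enzymes, 18 were lower at an unadjusted p under 0.05 and 14 without overlap, with a median of -1.39. Sqle (chromosome 15, 59315077 to 59331192, plus strand), squalene epoxidase, the first oxygenation of the pathway, had the most negative difference of the list. Its values were 35.2, 81.9, 13.9 and 23.7 on chow and 1.46, 3.66, 1.46 and 7.85 on HFD. The group means were 38.7 ± 30.1 and 3.61 ± 3.01 (SD, n = 4), a ratio of 10.7, and the log2 difference was -3.03 ± 0.77 (limma adjusted p = 0.188, and 0.0302 without HFD replicate 4). The highest HFD liver, replicate 4, was still below the lowest chow liver.

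Upstream in the mevalonate steps, Hmgcs1 (chromosome 13, 119690379 to 119708260, plus strand), the cytosolic HMG-CoA synthase whose promoter is shown above, had 257, 487, 103 and 134 on chow and 52.0, 62.7, 39.0 and 77.9 on HFD. That is a log2 difference of -1.84 ± 0.51 (limma adjusted p = 0.205, and 0.0445 without HFD replicate 4). Chow replicate 2 was the highest liver and the diets did not overlap. Idi1, the isopentenyl diphosphate isomerase, went from 90.9, 253, 52.0 and 80.9 to 8.24, 18.4, 14.4 and 40.8 (-2.44 ± 0.75), with HFD replicate 4 again nearest to chow.

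In the later steps from lanosterol to cholesterol, Cyp51 (chromosome 5, 4081145 to 4104746, minus strand), the lanosterol demethylase, had 56.9, 113, 32.9 and 43.4 on chow and 8.14, 16.3, 8.38 and 16.04 on HFD. The group means of 61.5 ± 35.6 and 12.2 ± 4.57 (SD, n = 4) differed by -2.15 ± 0.56 on the log2 scale (limma adjusted p = 0.199, and 0.0405 without HFD replicate 4). Sc5d, the lathosterol oxidase, had 274, 454, 187 and 273 against 79.0, 105, 88.7 and 185 (-1.38 ± 0.42). The narrow gap between 187 and 185 is again between chow replicate 3 and HFD replicate 4. A further 2 enzymes overlapped at an unadjusted p above 0.05: Ebp (-0.30 ± 0.16), the sterol isomerase, and Fdft1 (-0.10 ± 0.21), squalene synthase, which sits directly before Sqle.

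Among the 3 uptake and transport genes, 2 were lower at an unadjusted p under 0.05 and 1 without overlap. Stard4, a carrier of cholesterol between membranes, had 43.3, 55.2, 41.2 and 56.0 on chow and 16.8, 29.7, 27.6 and 46.1 on HFD (-0.76 ± 0.35, limma adjusted p = 0.374). Only HFD replicate 4 reached into the chow range.

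Chow replicate 2 was the highest of the 8 livers in 24 of the 25 sterol genes, and it also differed in clock genes, which were looked at for this reason after the values were seen. Arntl, the clock activator also called Bmal1, stood at 13.0 in that liver, at 0.564 to 1.91 in the other chow livers and at 0.397 to 2.83 on HFD. Dbp, a clock output gene that runs in antiphase to it, stood at 4.93 there, at 90.0 to 219 in the other chow livers and at 57.3 to 296 on HFD. Without chow replicate 2 the sterol list had 14 members lower at an unadjusted p under 0.05 instead of 22, and its median was -0.90. All genes at that level, in either direction, fell from 1641 to 1289. The part of collection time or feeding in the difference was not tested.

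Genes of fatty acid and triglyceride synthesis had a mean level of 5.63 to 5.96 in the HFD livers and 6.02 to 6.22 on chow, on log2(value + 1), without overlap. Of 26 members, 19 had a negative difference and the median was -0.25. At an unadjusted p under 0.05, 2 were higher and 3 lower (6.4% and 6.52% of all genes). With only the 8 control libraries in the fit, 2 were higher and 7 lower. In that fit 1561 of all 12704 genes reached that level, in either direction. Scd1 (chromosome 19, 44394455 to 44407879, minus strand), the stearoyl-CoA desaturase that makes monounsaturated fatty acids, had 1300, 1037, 583 and 866 on chow and 309, 260, 255 and 101 on HFD. The means of 946 ± 301 and 231.3 ± 90.1 (SD, n = 4) differ 4.09 times, and the log2 difference was -2.08 ± 0.52 (limma adjusted p = 0.178). All 4 HFD livers lay well below the lowest chow liver, HFD replicate 4 lowest of all.

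Fasn, fatty acid synthase, was also without overlap, at 179, 216, 157 and 243 on chow and 79.2, 154, 131 and 88.5 on HFD, but its unadjusted p missed 0.05 (-0.84 ± 0.42, limma adjusted p = 0.421). In the opposite direction, Srebf1 (chromosome 11, 60199089 to 60222581, minus strand) had 261, 205, 178 and 260 on chow and 474, 374, 325.1 and 292 on HFD (0.69 ± 0.26, limma adjusted p = 0.292). Its HFD values lay above all chow values while Scd1 and Fasn, which SREBP-1c is known to activate, lay below. In triglyceride assembly, Dgat1, the final acyltransferase, was higher, at 16.7 to 17.8 on chow and 21.1 to 29.2 on HFD (0.50 ± 0.14). Gpam, the first acyltransferase, was lower, at 64.3 to 78.2 against 31.6 to 60.2 (-0.76 ± 0.33).

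Of 19 lipid droplet and fatty acid uptake genes tested, 6 were higher at an unadjusted p under 0.05 (6.4% of all genes), 4 of these without overlap (3.38% of all genes), and none was lower. Their median was 0.26, and 0.13 when each library's trend of level on transcript length was removed. Hsd17b13, a droplet enzyme of hepatocytes, had 147, 113, 152 and 120 on chow and 171, 221, 200.5 and 173 on HFD (0.52 ± 0.18, limma adjusted p = 0.267). Bscl2, the seipin of droplet formation, had 38.6 to 41.7 against 43.4 to 58.2 (0.40 ± 0.11, limma adjusted p = 0.202, and 0.0197 without HFD replicate 4). Plin3, a droplet coat protein, had 19.6 to 20.96 against 22.1 to 33.1 (0.33 ± 0.15), and Fabp4, a fatty acid carrier of adipocytes and macrophages, 5.26 to 6.94 against 7.68 to 10.03 (0.38 ± 0.18). These 4 did not overlap between diets.

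Several droplet genes linked to fatty liver overlapped. Plin2, the main coat protein of hepatocyte droplets, had 354, 187, 233.98 and 200 on chow and 200, 255, 311 and 194 on HFD, a log2 difference that rounds to 0 (standard error 0.25). Cidec, which fuses droplets, had 5.87 to 10.5 and 5.75 to 13.3 (0.24 ± 0.33), and Pparg, the receptor that drives fat storage, 6.10 to 7.99 and 7.03 to 9.65 (0.26 ± 0.17). Cd36, the fatty acid translocase, was higher at an unadjusted p under 0.05 but overlapped, with 28.1 to 41.7 on chow and 33.5 to 64.7 on HFD (0.42 ± 0.18, limma adjusted p = 0.332). Cidea has no row in the table used.

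Fatty acid oxidation and PPAR alpha targets showed no common direction, with a median of -0.03. At an unadjusted p under 0.05, 3 of 39 were higher and 1 lower (6.4% and 6.52% of all genes). Acads, the short-chain acyl-CoA dehydrogenase, had 139 to 161 on chow and 171 to 193 on HFD without overlap (0.27 ± 0.11), and Acot2, a mitochondrial thioesterase, 9.58 to 17.0 against 5.43 to 9.48 (-0.65 ± 0.29). Cpt1a, the entry step of mitochondrial oxidation, had 82.9 to 165 and 88.9 to 152 (-0.11 ± 0.26). Cyp4a14, an omega-hydroxylase and a sensitive PPAR alpha target, had 208 to 608 and 210 to 441 (-0.33 ± 1.15), and Fgf21, a fasting-responsive hormone, 0.508 to 21.5 and 5.10 to 10.001 (0.75 ± 0.60). All 3 of these overlapped widely. The standard error of Cyp4a14 also holds the spread of the mutant chow livers, at 5.97, 1.61, 299 and 280.

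Apoa4 (chromosome 9, 46240696 to 46243459, plus strand), an apolipoprotein of triglyceride-rich particles, shared the smallest adjusted p of the comparison. It stood at 1143, 810, 774 and 792 on chow and at 2145, 2329, 2523 and 2023 on HFD, and every HFD liver was above every chow liver. The means were 880 ± 176 and 2255 ± 218 (SD, n = 4), a ratio of 2.56, and the log2 difference was 1.37 ± 0.21 (limma adjusted p = 0.0842). The adjusted p was 0.0161 without HFD replicate 4. Of the 26 lipoprotein genes, 4 were higher at an unadjusted p under 0.05 (6.4% of all genes) and none lower. Apoa4 was the only one without overlap. The list's median of 0.25 became 0.34 without HFD replicate 4, when 5 members passed as higher (4.07% of all genes), and 0.09 when the length trend was removed. Apoc2, the activator of lipoprotein lipase, had 510, 319, 347 and 304 on chow and 900, 860, 781 and 380 on HFD, where replicate 4 fell within the chow range (0.93 ± 0.25).

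Of 23 bile acid genes, 1 was higher and 3 lower at an unadjusted p under 0.05 (6.4% and 6.52% of all genes). Their median was -0.13. Without HFD replicate 4 the median was -0.24, with 5 lower and none higher, and with library weights 9 were lower and none higher. All genes at that level, in either direction, also rose, from 1641 to 3387 and 4266 in these fits. Cyp7a1, the rate-limiting enzyme of bile acid synthesis, had 42.1, 112, 20.2 and 68.4 on chow and 19.7, 12.1, 28.8 and 77.1 on HFD (-0.88 ± 0.62, limma adjusted p = 0.565, and -1.37 without HFD replicate 4). Both groups spread over several fold and overlapped. Cyp8b1, which sets the share of cholic acid, had 76.7 to 244 and 37.6 to 164 (-0.40 ± 0.42). Slco1a4, an uptake transporter, was lower without overlap, with 103, 127, 155 and 128 on chow and 68.7, 67.1, 75.8 and 102 on HFD (-0.71 ± 0.21, limma adjusted p = 0.216, and 0.0332 without HFD replicate 4).

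Cytochrome P450 genes of the Cyp2 and Cyp3a families were lower on HFD more often than higher. Of the 36 genes of that list with their receptors, 9 were lower at an unadjusted p under 0.05 (6.52% of all genes) and 1 was higher, and 9 were lower without overlap (2.98% of all genes). The median was -0.27, and -0.37 without HFD replicate 4. Without HFD replicates 1, 2 and 3 in turn, 4, 4 and 7 were lower at that level and none higher. All genes at that level, in either direction, then fell from 1641 to 1172, 1055 and 1071. Members of these families share much sequence, so that the estimated split of reads among near-identical copies makes single values uncertain. Cyp2b10, a target of the xenobiotic receptor CAR, had 35.5, 136, 80.3 and 49.7 on chow and 28.0, 28.7, 21.7 and 31.6 on HFD (-1.25 ± 0.40, limma adjusted p = 0.241). Cyp2c29, an abundant arachidonic acid epoxygenase, had 788, 1168, 1217 and 889 against 692, 744, 606 and 560 (-0.63 ± 0.18, limma adjusted p = 0.215). Cyp2c55 was low in all livers, at 1.32 to 2.91 on chow and 0.0730 to 0.502 on HFD (-1.04 ± 0.23). Cyp3a11, a main target of the receptor PXR, overlapped, at 323.8 to 1434 and 389 to 498 (-0.56 ± 0.76).

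Several of the lower P450 genes are among those normally expressed more in female than in male liver. In the list of 27 female-biased genes, 9 were lower and 1 higher at an unadjusted p under 0.05 (6.52% and 6.4% of all genes). Their median was -0.58, and 5 were lower without overlap (2.98% of all genes). Without HFD replicates 1, 2 and 3 in turn, 3, 4 and 7 were lower and 2, 0 and 0 higher. The medians were then -0.43, -0.70 and -0.70. All genes at that level, in either direction, numbered 1172, 1055 and 1071 in these fits, beside 1641 with all libraries. Cyp2c40 had 105, 164, 70.9 and 189 on chow and 14.8, 28.5, 39.3 and 59.0 on HFD (-1.93 ± 0.71, limma adjusted p = 0.292). Cyp3a16 had 92.2 to 152 against 25.98 to 65.6 (-1.51 ± 0.62), Cyp3a44 26.9 to 54.2 against 3.69 to 24.4 (-2.14 ± 0.94) and Cyp3a41b 12.5 to 45.1 against 1.70 to 8.62 (-2.27 ± 0.95). None of these 4 overlapped. Atp6v0d2, a proton pump subunit on the same list, had 10.6, 15.3, 12.5 and 9.26 against 3.16, 4.54, 4.33 and 8.48 (-1.12 ± 0.27, limma adjusted p = 0.175). In the 13 male-biased genes tested 2 were higher and none lower, with a median of 0.05, and the male-biased urinary protein gene Mup20 stood at 10.4 to 13.2 on chow and 16.8 to 53.4 on HFD without overlap (1.32 ± 0.53). The estrogen receptor gene Esr1, which is floxed but not deleted in these livers, had 10.99, 12.2, 7.59 and 15.9 on chow and 7.52, 6.14, 8.09 and 7.07 on HFD (-0.59 ± 0.34, limma adjusted p = 0.48).

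**Figure D2:**
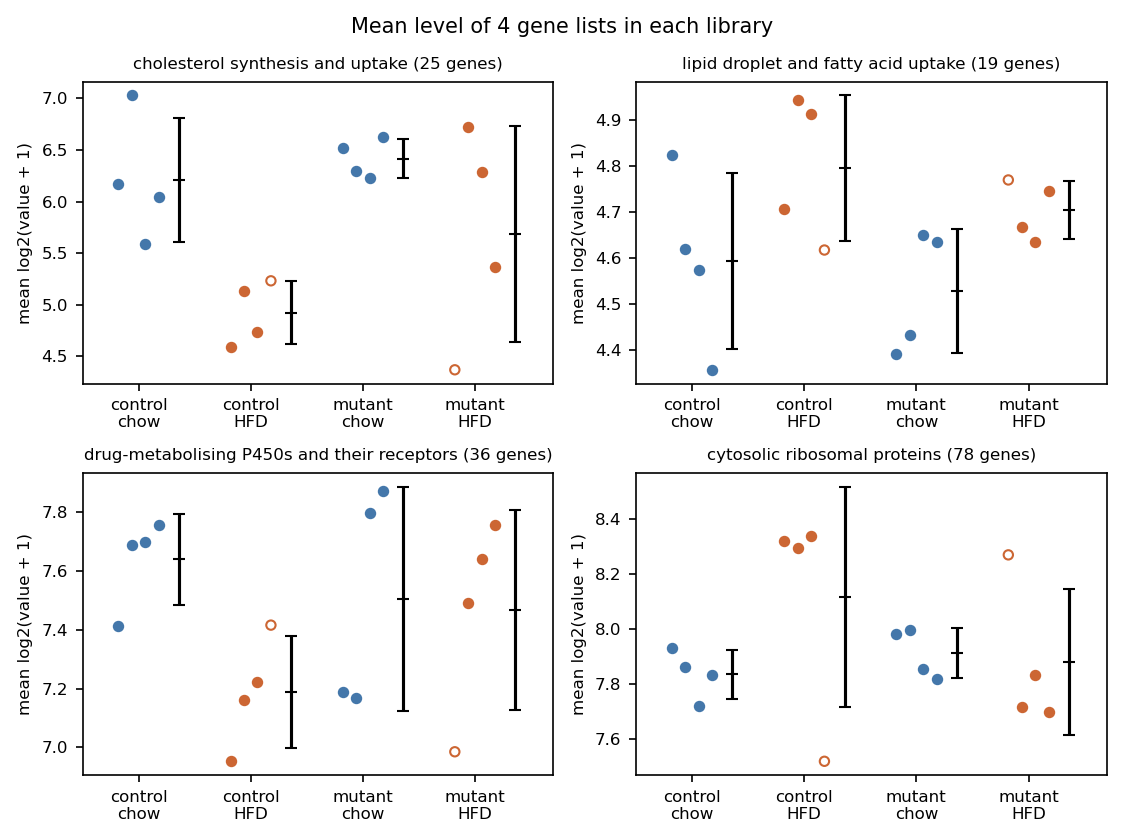
Mean of log2(value + 1) over the tested genes of 4 lists in each of the 16 libraries, with the mean ± SD of each group of 4 beside the points. Open circles mark the HFD library of each genotype that shares no title series with the other 3 of its group. In controls the sterol list is lower in all 4 HFD livers (4.59 to 5.23 against 5.59 to 7.03), whereas the ribosomal list is higher in HFD replicates 1 to 3 (8.29 to 8.34) and lower in replicate 4 (7.52) than in the chow livers (7.72 to 7.93).

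In glutathione and one-carbon metabolism single genes stood out rather than lists. Gstm3, a glutathione transferase, had 47.8, 146, 58.1 and 85.7 on chow and 27.9, 44.3, 35.5 and 18.6 on HFD (-1.33 ± 0.32, limma adjusted p = 0.172). Its family member Gstm4 had 39.5 to 75.0 against 26.2 to 35.4 (-0.67 ± 0.24). Of 28 glutathione and NRF2 genes, 4 were lower and 1 higher at an unadjusted p under 0.05 (6.52% and 6.4% of all genes). The median of that list was -0.04. Bhmt (chromosome 13, 93616675 to 93637961, minus strand), which remethylates homocysteine with betaine, had 2005, 4360, 984 and 1285 on chow and 582, 646, 466 and 671 on HFD. The HFD livers were tightly grouped below the lowest chow liver, at a mean of 591 ± 91.5 against 2159 ± 1529 (SD, n = 4), and the log2 difference was -1.64 ± 0.39 (limma adjusted p = 0.172, and 0.0332 without HFD replicate 4). Chdh, which makes betaine from choline, had 56.1 to 73.5 against 41.6 to 55.9 (-0.39 ± 0.16). Of the 21 one-carbon genes, 2 were higher and 5 lower at an unadjusted p under 0.05, with a median of -0.11 that became 0.01 without HFD replicate 4.

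Glucose metabolism genes gave modest differences. Of 21 members, 2 were higher and 3 lower at an unadjusted p under 0.05 (6.4% and 6.52% of all genes). Their median was 0.09. Pfkl, the liver phosphofructokinase, had 16.3, 20.9, 15.6 and 18.1 on chow and 23.5, 24.5, 24.0 and 23.2 on HFD (0.41 ± 0.11), and Pcx, pyruvate carboxylase, 161 to 210 against 219 to 240 (0.37 ± 0.11). Neither overlapped. Pck1 (0.25 ± 0.39) and G6pc (-0.20 ± 0.58), which encode the PEP carboxykinase and the glucose phosphatase of glucose production, overlapped. Without HFD replicate 4 their differences were 0.70 and 0.41. HFD replicate 4 was the lowest of the 8 livers for Pck1, at 554 against 931 to 2144, and for G6pc, at 55.9 against 105 to 396.

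Secreted liver proteins differed in single members. Hamp, which encodes the iron hormone hepcidin, had 7965, 5117, 6252 and 7012 on chow and 12483, 9580, 10354 and 10878 on HFD without overlap (0.73 ± 0.21, limma adjusted p = 0.215). Rbp4, the retinol carrier of plasma, had 3414 to 4388 against 4722 to 6152 (0.47 ± 0.18), and Inhba, an activin subunit, 3.67 to 6.62 against 2.26 to 3.45 (-0.61 ± 0.20). Fst, the activin antagonist follistatin, overlapped (-0.68 ± 0.49). Serpina1a, an alpha-1-antitrypsin gene, had 3985, 3724, 3854 and 3874 against 2261, 2806, 2538 and 2828 (-0.57 ± 0.14, limma adjusted p = 0.173, and 0.0274 without HFD replicate 4). The chow livers were within a narrow range and well above every HFD liver. In the hepatokine list 2 of 28 were higher and 2 lower at an unadjusted p under 0.05 (6.4% and 6.52% of all genes). The median of that list was 0.04, and in the iron list 1 of 15 was higher and 1 lower.

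The mean level of the 27 acute-phase genes was 8.37, 7.65, 7.32 and 6.99 on log2(value + 1) in the HFD livers and 6.94 to 7.27 on chow, so that HFD replicates 1 to 3 lay above every chow liver and replicate 4 among them. No member had an unadjusted p under 0.05 by limma with all 16 libraries in the fit. With only the 8 control libraries, 8 members were higher at that level and none lower, and with library weights 6 were higher and 2 lower. In these fits 1561 and 4266 of all 12704 genes reached that level, in either direction. Saa1, serum amyloid A1, had 58.5, 30.5, 46.4 and 63.2 on chow and 2886, 379, 183 and 46.0 on HFD (2.67 ± 1.69, limma adjusted p = 0.512), and Lcn2, lipocalin 2, had 12.4 to 34.9 on chow and 598, 82.4, 28.3 and 30.9 on HFD (1.84 ± 1.31). In both genes HFD replicate 1 was the highest by far and replicate 4 lay within the chow range. Their standard errors also hold the spread of the mutant chow livers, where replicate 2 had 20633.5 for Saa1 and 4677 for Lcn2.

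Immune and stromal genes differed little with all 16 libraries in the fit. In the macrophage and inflammation list 3 of 26 were higher and 1 lower at an unadjusted p under 0.05 (6.4% and 6.52% of all genes). The median of that list was 0.05. Trem2 (chromosome 17, 48346401 to 48354147, plus strand), a receptor of lipid-associated macrophages, had 3.83, 4.28, 5.57 and 4.93 on chow and 8.86, 13.5, 7.501 and 7.93 on HFD. Its means of 4.65 ± 0.761 and 9.46 ± 2.78 (SD, n = 4) did not overlap, with a log2 difference of 0.86 ± 0.22 (limma adjusted p = 0.188, and 0.0356 without HFD replicate 4). In these whole-liver samples more cells of a type and more RNA per cell cannot be told apart. The 6 Kupffer cell markers summed to 111 to 387 on chow and 246 to 391 on HFD, with 1 of 6 higher at an unadjusted p under 0.05, so the resident macrophage signal overlapped. In the interferon list 4 of 29 were lower and none higher, among them Irgm1, an interferon-induced GTPase (34.6 to 42.1 against 24.6 to 34.6, -0.48 ± 0.18). None of the 25 stellate cell and matrix genes reached an unadjusted p under 0.05, and their median was -0.02. No member of the endothelial, stellate, bile duct, lymphocyte, neutrophil or red cell marker lists did so either in this fit. With only the 8 control libraries, 2 of 6 neutrophil and 1 of 6 lymphocyte markers were higher at that level. In the macrophage list 5 were then higher and 1 lower, and in the interferon list 6 were lower. With library weights, 4 of 5 red cell, 2 of 6 lymphocyte and 1 of 6 endothelial markers were higher, and 1 of 6 stellate cell markers was lower. Over all 12704 genes, 1561 reached that level with the 8 control libraries and 4266 with weights, in either direction.

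The remaining lists gave few members at an unadjusted p under 0.05, where 6.4% of all genes were higher and 6.52% lower. Of 22 growth hormone and steroid receptor genes, 3 were lower and none higher, with a median of -0.21. That median became -0.41 without HFD replicate 4, and with library weights 6 passed the adjusted threshold as lower (8.58% of all genes). In the circadian clock list, 1 of 20 was higher and 1 lower (median 0.23), and of 20 major urinary proteins 1 was higher and 1 lower (median -0.42). Among 16 immediate early genes, which respond to handling and stimuli, 3 were higher and 1 lower, with a median of 0.19 that became 0.50 without HFD replicate 4. Of 30 amino acid and urea genes 1 was higher (median 0.11), of 24 zonation genes 1 (median -0.03), of 29 endoplasmic reticulum folding genes 2 (median 0.10) and of 17 cell cycle genes none (median -0.02), and no member of these 4 lists was lower. Without HFD replicate 4 the amino acid median was 0.20 and the folding median 0.23. The 3 pancreas and muscle markers tested did not reach an unadjusted p under 0.05 either.

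As list means, ribosomal protein and oxidative phosphorylation genes were higher than in every chow liver in HFD replicates 1 to 3 and lower than in every chow liver in replicate 4, although single members were higher in all 4. Of 78 cytosolic ribosomal protein genes, 24 were higher at an unadjusted p under 0.05 (6.4% of all genes) and 10 without overlap (3.38% of all genes). Their median was 0.32, and 0.51 without HFD replicate 4, when 41 passed as higher (4.07% of all genes). Rps6 had 474, 421, 484 and 444 on chow and 682, 658, 661 and 513 on HFD (0.46 ± 0.14, limma adjusted p = 0.224). Over the whole list, HFD replicates 1 to 3 stood at 8.29 to 8.34, the chow livers at 7.72 to 7.93 and HFD replicate 4 at 7.52, below all chow livers. Mutant HFD replicate 1, of the same title series as control HFD replicates 1 to 3, stood at 8.27 and the other 3 mutant HFD livers at 7.70 to 7.83. Of the 75 oxidative phosphorylation subunits, 12 were higher at an unadjusted p under 0.05 (6.4% of all genes). Their median was 0.24, and 0.43 without HFD replicate 4, when 19 passed as higher (4.07% of all genes). Ndufs7, a complex I subunit, had 169 to 186 against 195 to 297 (0.53 ± 0.16). In the 34 proteasome subunits 3 were higher and 2 lower at an unadjusted p under 0.05, with a median of 0.07.

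Both families have short transcripts, and the level of a gene moved with its length in the same libraries. In the shortest of 5 length classes of tested genes, with a longest annotated transcript of 81 to 1780 bases, the median log2 difference from the chow mean was 0.23 to 0.27 in HFD replicates 1 to 3 and -0.09 in replicate 4. In the longest class, of 5086 bases or more, it was -0.25 to -0.23 in the first 3 and 0.09 in replicate 4. Mutant HFD replicate 1 had 0.21 and -0.20. When each library's trend on length was removed, the ribosomal median was 0.16, with 11 members higher and 2 lower at an unadjusted p under 0.05. The oxidative phosphorylation median was then 0.10, with 6 of 75 members higher, and the sterol median was -1.28, with 21 of 25 lower. Over all 12704 genes, 700 were higher and 695 lower at that level in this fit. The cause of the length trend was not tested. Red cell markers summed to 4831 to 6922 in HFD replicates 1 to 3, above the chow range of 1623 to 4562. Replicate 4, at 1695, lay within that range. The part of red cells was not tested.

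**Figure D3:**
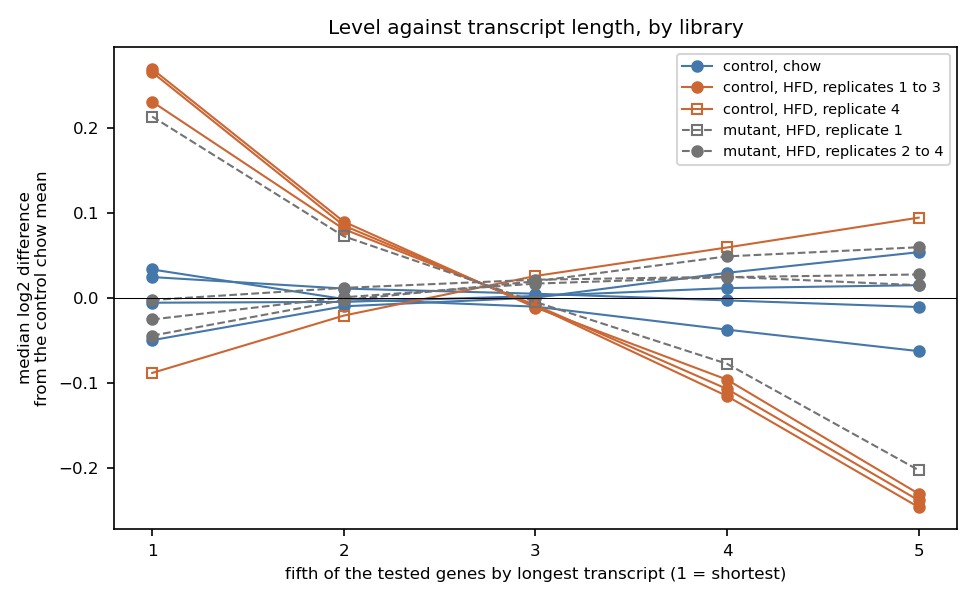
Median log2 difference from the mean of the control chow livers in 5 classes of tested genes by longest annotated transcript, 1 line per library (x axis: length class from shortest to longest, y axis: log2 difference). Control HFD replicates 1 to 3 and mutant HFD replicate 1 fall steadily from above 0.2 in the shortest class to about -0.2 in the longest, and control HFD replicate 4 runs slightly the other way.

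Across all tested genes, 21 were higher and 54 lower with a log2 difference of at least 1 and no overlap, and the 12 of smallest p on each side are plotted by liver. After Apoa4, the higher genes of known function included Fabp2, the intestinal fatty acid-binding protein, with 112, 52.7, 69.9 and 65.6 on chow and 145, 152, 154 and 135 on HFD (1.01 ± 0.26, limma adjusted p = 0.199, and 0.044 without HFD replicate 4). The HFD livers differed from each other by little and lay above the highest chow liver. Gsn, the actin-severing protein gelsolin, had 15.4, 16.6, 28.9 and 10.6 against 141, 102, 66.4 and 43.6 (2.19 ± 0.52, limma adjusted p = 0.172). Its lowest HFD value was again in replicate 4. Ifi27l2b, an interferon alpha-inducible family member, had 2.38 to 4.86 against 10.5 to 37.6 (2.10 ± 0.51), and Nanp, a phosphatase of sialic acid synthesis, 0.774 to 3.26 against 5.83 to 9.12 (1.41 ± 0.31). Sema5b, a semaphorin, had 0.368 to 2.10 against 2.30 to 5.07, Tmem141, a small membrane protein, 10.4 to 18.1 against 21.8 to 44.5, and Rsc1a1, a regulator of solute transport, was listed at 0 in 2 chow livers and at 5.51 in another, against 5.58 to 14.7 on HFD. The remaining 4 were Gm9747 and the processed pseudogenes Gm45674, Gm15185 and Gm12191, whose values depend on how reads were split with their parent genes.

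On the lower side, Mcmdc2 (chromosome 1, 9908638 to 9942085, plus strand), a protein of meiotic recombination, shared the smallest adjusted p with Apoa4. Its level was low, at 4.34, 5.41, 3.24 and 3.09 on chow and 1.04, 1.62, 1.65 and 1.35 on HFD (-1.04 ± 0.17, limma adjusted p = 0.0842). Zg16 (chromosome 7, 127050156 to 127087328, minus strand), a secreted lectin, had 80.0, 70.2, 65.8 and 60.9 against 31.3, 34.0, 24.7 and 29.5 (-1.19 ± 0.22, limma adjusted p = 0.142). The diets were clearly apart in both genes, HFD replicate 4 included. Camk1d, a calcium-dependent kinase, had 27.5 to 48.8 against 11.9 to 26.8 (-1.12 ± 0.22, limma adjusted p = 0.151), and Eci3, a peroxisomal enoyl-CoA isomerase, 8.66, 40.8, 8.53 and 28.1 against 1.23, 2.84, 2.95 and 1.90 (-2.54 ± 0.56, limma adjusted p = 0.158). The other lower genes were Bhmt, Gstm3, Scd1, Cyp2c55 and Atp6v0d2, given above, and 3 pseudogenes. Of these, 2610005L07Rik had 24.9 to 29.5 against 7.85 to 20.997, Gm45754 3.53 to 9.95 against 0.128 at most, and Gm12751 1.31 to 9.54 on chow and was listed at 0 in all 4 HFD livers.

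**Figure D4:**
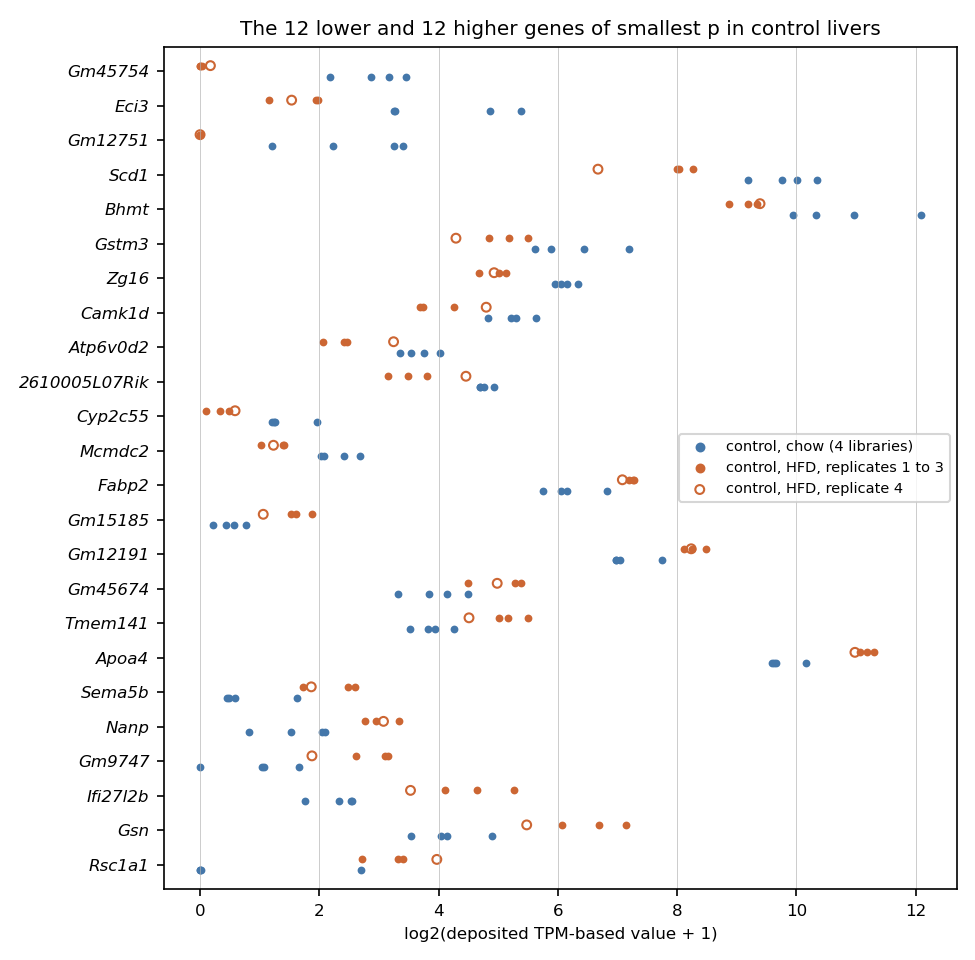
Level of the 12 lower genes (top) and the 12 higher genes (bottom) of smallest p that had a log2 difference of at least 1 and no overlap, in the 8 control livers on log2(deposited TPM-based value + 1). Each point is 1 liver. The rule required the groups not to overlap, and what the plot adds is the place of HFD replicate 4 (open circles), which is the HFD liver nearest to chow for Camk1d, Atp6v0d2, Gsn and Ifi27l2b but not for Scd1, Gstm3 or Rsc1a1.

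The study also asked how the same diet acted in the mutants, and the contrast HFD minus chow was taken there from the same fit. At an unadjusted p under 0.05, 344 genes were higher on HFD in mutants (2.71%) and 528 lower (4.16%), and none passed the adjusted threshold. No gene passed it for the genotype by diet interaction, by limma, with 535 genes at an unadjusted p under 0.05. The sterol list had a median of -0.69 in mutants with 4 of 25 lower, beside -1.10 and 22 in controls, and no member differed between genotypes at the adjusted threshold (smallest adjusted p = 0.895). Its mean level in the mutant HFD livers was 4.37 in replicate 1 and 6.73, 6.28 and 5.37 in replicates 2 to 4, against 6.23 to 6.63 on chow. The mutant of the title series shared with control HFD replicates 1 to 3 was thus the lowest, and those of the series shared with control HFD replicate 4 (5.23) were higher than that control.

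Apoa4 and Fabp2 were higher on HFD without overlap in mutants as well, with log2 differences of 0.75 ± 0.21 and 1.39 ± 0.26. Eci3 was lower without overlap in both genotypes, at -1.84 ± 0.56 in mutants. Sqle stood at -2.05 ± 0.77 in mutants and -3.03 ± 0.77 in controls, but its interaction did not pass (limma adjusted p = 0.907). Cyp7a1 had opposite signs, 1.69 ± 0.62 in mutants and -0.88 ± 0.62 in controls, with an interaction of 2.56 ± 0.88 that did not pass either (limma adjusted p = 0.895). Saa1 and Lcn2 were lower on HFD in mutants by the fit (-2.28 ± 1.69 and -2.12 ± 1.31), where mutant chow replicates 1 and 2 had list means of 8.51 and 10.6 for the acute-phase genes against 7.12 and 7.35 in the other 2.

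**Figure D5:**
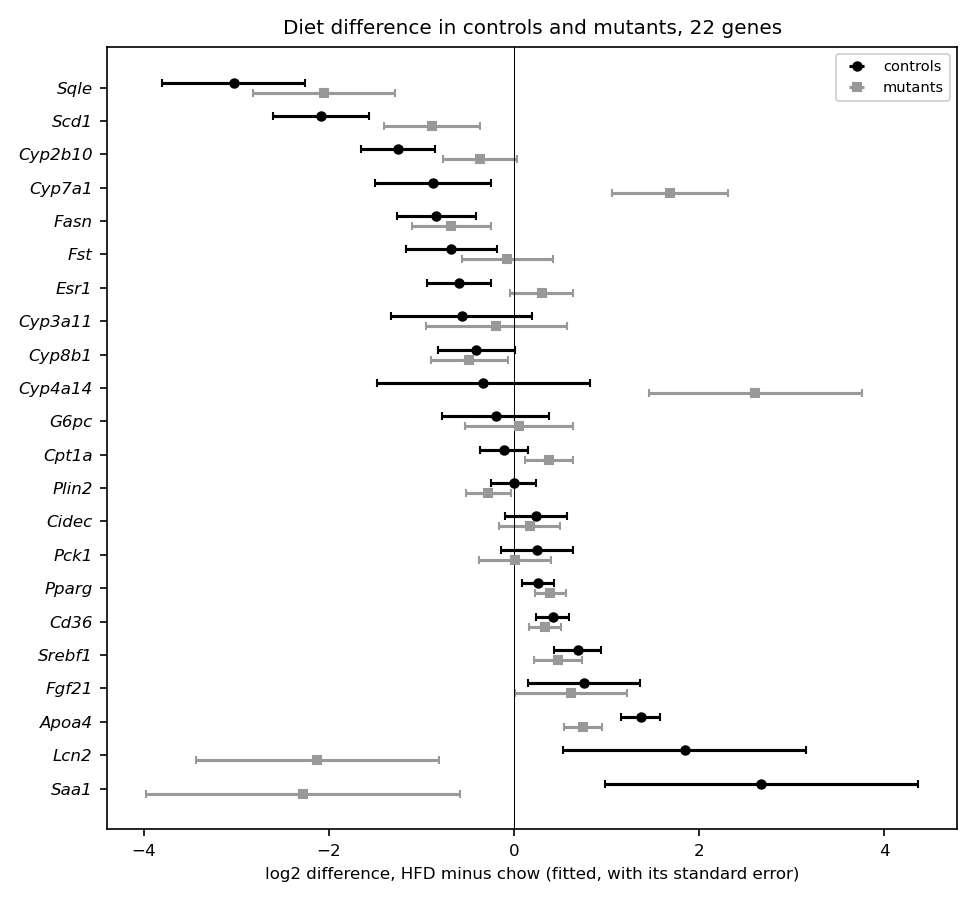
Fitted log2 difference, HFD minus chow, with its standard error for 22 metabolic, acute-phase and receptor genes, in controls (black circles) and mutants (gray squares). Sqle and Scd1 lie left of 0 and Apoa4 right of it in both genotypes, while Cyp7a1, Cyp4a14, Saa1 and Lcn2 show the widest gaps between genotypes, none past the adjusted threshold of the interaction.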

How the data were processed

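Total RNA from liver was prepared for sequencing with the NEBNext Ultra II chemistry and read on a NovaSeq by a provider. Per the labels and methods, the authors quantified reads on mouse transcripts (mm10) with kallisto and tested genes with sleuth (versions not given in the sources used here). The deposited signal is a TPM-scale level per gene adjusted by size factors, a unit that no source states and that was read off the fractional values and unequal column totals. A count test foreseen for counts was therefore not used. Reads shared by near-identical genes are split by estimation, and strand setting is not given in the sources used here. Depth is unknown, so precision rests on the spread between libraries within groups, pooled for each gene over all 4 groups, mutants included.

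Of 15544 genes, 12704 were tested, those reaching 1 in 4 or more of all 16 libraries, by limma 3.58.1 (R 4.3.3) with a variance trend on log2(value + 1), in 1 fit of 4 group means with no covariate. Benjamini-Hochberg adjustment spanned all 12704 genes (threshold 0.05). Log2 differences understate changes of low genes. Single library values were compared by an exact permutation test. The code was tested on simulated data. Groups came from genotype and treatment labels. Replicate numbers follow sample order, since the labels have none, and do not pair samples, and nothing beyond 1 library per sample states that samples are separate animals, so p-values measure the spread between samples.

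Members and 40 gene lists were chosen with earlier results of these data known. Named genes were 27 fixed genes (26 measured), the 12 higher and 12 lower of smallest p with a log2 difference of at least 1 and no overlap, and at most 4 per list with an unadjusted p under 0.05 and no overlap. Other list members named, and the promoter motifs and clock genes, were chosen after their values were seen. Positions and transcript lengths are from GENCODE M21 (GRCm38, also called mm10), matched by identifier for 15531 genes, and promoters from RefSeq. Alternatives were size factors, filters, a pseudocount of 0.1, library weights, the 8 control libraries alone, leaving out each control library, and, added after seeing the data, removal of the length trend. Some genes of these lists are counted but not reported here by name.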

Additional observations from a re-analysis of the deposited data

Results flagged for a closer look

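In 11 of 158 groups of 4 livers the value of a named gene in 1 liver was far from the other 3 by Dixon's test at 95%, where chance gives about 1 in 20. Control HFD replicate 1 accounted for 3 of these, all of them high: Saa1 at 2886 (others 46.0 to 379), Lcn2 at 598 (28.3 to 82.4) and Fst at 8.32 (1.85 to 2.80). Control HFD replicate 4 was low for 1 ribosomal protein gene, Rps6, at 513 (others 658 to 682). Control chow replicate 1 was high for 4 genes, Apoa4 at 1143 (774 to 810), Sema5b at 2.10 (0.368 to 0.503), Gm12191 at 214 (125 to 131) and Acot2 at 17.0 (9.58 to 10.6). Control chow replicate 2 was high for Rsc1a1 at 5.51 (0 to 0.00815) and Cyp2c55 at 2.91 (1.32 to 1.38), and control chow replicate 3 was low for Plin3 at 19.6 (20.93 to 20.96).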

How the results depend on the processing

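The number of genes past limma's adjusted threshold for diet in controls was 0 under size factors, either filter, the pseudocount of 0.1 and removal of the length trend. It was 4 with the 8 control libraries alone (Gm45754, Zg16 and Ces2a lower, Apoa4 higher) and 2264 with library weights, and it ranged from 0 to 925 when each control library was left out. The 925 were without control HFD replicate 4, and 2 (Apoa4 and Ncmap) without control chow replicate 1. Genes at an unadjusted p under 0.05 numbered 1641, 4266 with library weights, and 1055 to 3387 with libraries left out (1055 without HFD replicate 2, 1071 without HFD replicate 3 and 3387 without HFD replicate 4). The interaction had 0 genes past the threshold under every alternative run. Of 85 named genes, 81 kept their direction in each of the 15 alternatives that gave them a value. Genes named for having no overlap could not change direction when a library was left out, so for these genes that outcome was set by the naming rule. The filter at 5 left 79 of them. Plin2 turned to 0.016 with size factors and 0.13 with library weights, and ranged from -0.14 to 0.19 with libraries left out. G6pc turned to 0.25 with library weights and ranged from -0.57 to 0.41, Cyp8b1 from -0.68 to 0.014 and Cpt1a from -0.29 to 0.037. The sterol median ranged from -1.39 to -0.90 with libraries left out. The cause of these changes was not tested. No paired analysis was possible because the labels carry no replicate numbers. Depth is unknown on this scale, so values near 0 cannot be given a detection limit.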
